A study of Papio anubis with 24 samples.

Results

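miR-21 is made as a hairpin whose stem yields a pair of mature miRNAs, miR-21-5p from the 5′ arm and miR-21-3p from the 3′ arm. Both rows of the deposited baboon small RNA table were taken by their mature names, hsa-miR-21-5p and hsa-miR-21-3p (the prefix is that of the human reference), 2 of the 2656 mature miRNAs in it, and each name has 1 precursor there, so that the choice of a precursor row did not arise. The libraries came from a lesion and the eutopic endometrium, the lining inside the uterus, of each of 12 baboons (Papio anubis). In 8 animals endometriosis had been induced for 15 months by placing menstrual tissue in the peritoneal cavity, and 4 animals had spontaneous disease. Every animal thus carried the disease, and the eutopic endometria are matched tissue of diseased animals, not tissue of healthy controls. The sources used here do not say how long spontaneous disease had lasted, how old the animals were or how many lesions went into a library.

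The hairpin is cut by Drosha in the nucleus and by Dicer in the cytoplasm into a short duplex. The guide strand, for miR-21 the 5p strand, is usually loaded into an Argonaute protein and represses messenger RNAs that pair with its seed near the 5′ end, while most of the passenger strand is degraded. miR-21-5p is known for repressing PDCD4, SMAD7 and Sprouty genes, and it rises in fibrotic heart, lung and kidney, where TGF-β signalling raises its maturation. In rodent heart, miR-21-3p was described as a strand that fibroblasts release in vesicles. The series asks which miRNAs differ between lesion and eutopic endometrium, and miR-21 is the miRNA its study follows into fibrosis.

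Library totals were 2592999 to 7573913 counts. Counts were scaled with TMM, a method that sets the scale of a library so that most miRNAs do not change, and are given as CPM, counts for every 1e+06 of the scaled total. The scale matters in these tissues because miR-143-3p, a smooth muscle miRNA, took 4.88% to 31.0% of the counts in eutopic endometria and 13.9% to 71.7% in lesions. A miRNA past the test had an adjusted p under 0.05 in edgeR's quasi-likelihood test, Benjamini-Hochberg adjusted over all miRNAs tested. The labels name the animals but not how libraries were batched, so no batch could be examined.

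The guide strand was among the most abundant miRNAs in every library. miR-21-5p ranked 6 to 16 by count in eutopic endometria and 4 to 9 in lesions, with 26578 to 370612 counts a library. The passenger strand ranked 50 to 89 in eutopic endometria and 36 to 85 in lesions, with 1410 to 16015 counts. A level set by 3 counts would be 0.319 to 1.41 CPM, far below either strand.

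miR-21-5p stood at 5379 to 17976 CPM in the 8 induced eutopic endometria (median 13464) and at 17896 to 35917 CPM in the 8 induced lesions (median 23919). In the 4 spontaneous animals PA5655, PA6303, PA6627 and PA6762 the eutopic endometria held 25683, 15359, 12443 and 12389 CPM. Their lesions, in the same order, held 27970, 42268, 54382 and 21080 CPM. Lesions were therefore above the eutopic endometrium of the same animal in nearly all animals. Between animals the tissues overlapped: 2 of the 12 eutopic endometria, those of PA7457 and PA5655, lay above the lowest lesion. That of PA5655, at 25683 CPM, lay close below the median of all 12 lesions, 26061 CPM. The lowest eutopic level, 5379 CPM, came from PA7539, whose eutopic library was also the shallowest, and the highest lesion level came from PA6627.

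The level of the guide strand averaged 14058 ± 4824 CPM in eutopic endometrium and 28921 ± 10537 CPM in lesions (SD, n = 12 each). miR-21-5p rose in lesions by a log2 fold change of 1.05 (standard error 0.19, 95% interval 0.64 to 1.46), a 2.07-fold difference with an edgeR adjusted p of 0.000701. It was higher in the lesion of 11 of 12 animals (exact permutation by sign flips, two-sided, p = 0.000977). The exception was PA7457, with 17976 CPM in eutopic endometrium and 17896 CPM in the lesion. The largest rises were 4.37-fold in PA6627 and 4.21-fold in PA7539. Many miRNAs differed in this comparison: 278 of 527 passed, which is 52.8%. As shares of the 527, 25.6% were higher in lesions and 27.1% lower. TMM rests on most miRNAs not changing, a premise that 52.8% past the test leaves in doubt. Among all 527 miRNAs tested, miR-21-5p was number 50 by p and number 82 by the size of its rise.

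**Figure D1:**
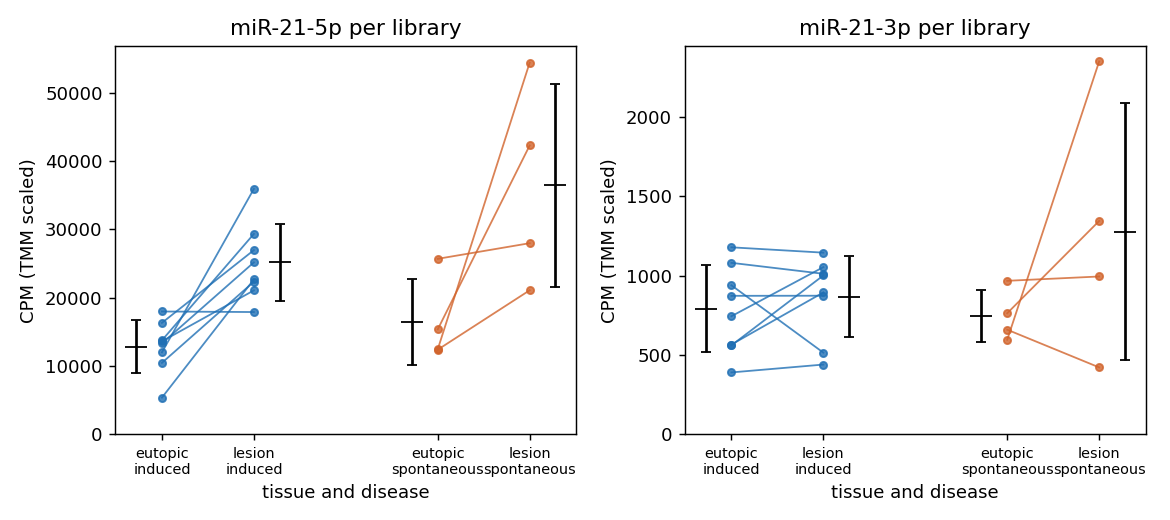
Level of miR-21-5p (left) and miR-21-3p (right) in CPM after TMM scaling, with a line for each animal from eutopic endometrium to lesion, in blue for induced and in orange for spontaneous disease, and black bars for the mean ± SD of each group. The 5p lines climb in 11 of 12 animals. The 3p lines climb in 8 and fall in 4, some of them being nearly flat, as in PA7539.

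miR-21-3p did not follow at the same size. It stood at 390 to 1179 CPM in the induced eutopic endometria (median 809) and at 440 to 1145 CPM in the induced lesions (median 948). In PA5655, PA6303, PA6627 and PA6762 it was at 968, 763, 596 and 660 CPM in eutopic endometrium. The lesions of these animals held 995, 1345, 2350 and 422 CPM. The tissues overlapped over nearly their whole range, and only the lesions of PA6303 and PA6627 lay above the highest eutopic endometrium.

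The passenger strand averaged 777 ± 236 CPM in eutopic endometrium and 1004 ± 511 CPM in lesions (SD, n = 12 each). Its log2 fold change was 0.27 (standard error 0.21, 95% interval −0.17 to 0.72, edgeR adjusted p = 0.276), and it did not pass the test. It was higher in the lesion of 8 animals and lower in 4 (exact sign-flip p = 0.237). The interval leaves room for a rise of the passenger strand. Its upper end lies below the log2 fold change estimated for the guide, but overlaps the guide's own interval (0.64 to 1.46). The difference between the strands is tested by their ratio below. Without PA6627, the lesion with the highest level of both strands, the change of miR-21-3p was 0.12 (edgeR adjusted p = 0.570) and that of miR-21-5p 0.94 (edgeR adjusted p = 0.00174).

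The ratio of the strands within a library does not depend on how libraries are scaled. The 3p strand made up 2.79% to 14.0% of the reads of both strands in the induced eutopic endometria (median 5.19%) and 2.05% to 4.29% in the induced lesions (median 3.52%). In PA5655, PA6303, PA6627 and PA6762 the share was 3.63%, 4.73%, 4.57% and 5.06% in eutopic endometrium. In their lesions it was 3.43%, 3.08%, 4.14% and 1.96%. The share was lower in the lesion of every animal, and 10 of 12 eutopic endometria lay above the highest lesion. With this many reads the counting error is small: the exact (Clopper-Pearson) 95% interval was 13.6% to 14.4% for the highest share and 1.86% to 2.07% for the lowest, and the intervals of lesion and eutopic endometrium overlapped in 1 animal, PA5655. These intervals cover counting error only. The reads carry no molecular identifiers, so copies of the same molecule could not be told apart and the intervals may be too narrow.

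**Figure D2:**
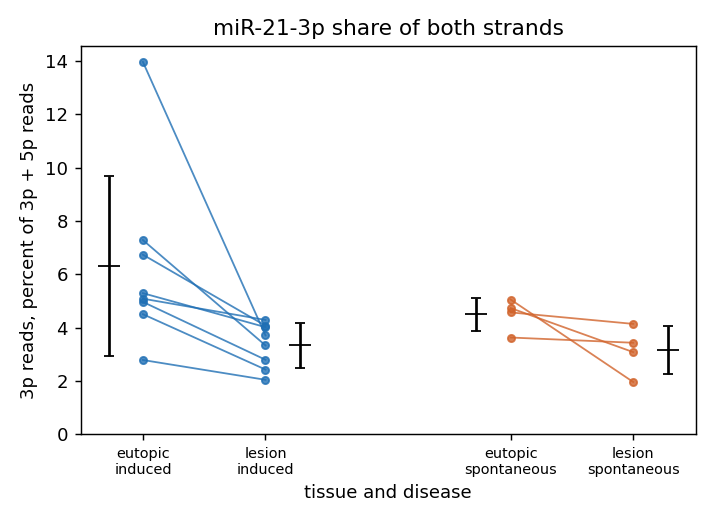
Reads of miR-21-3p as a percentage of all miR-21 reads in each library, with a line for each animal and black bars for the mean ± SD of each group. All 12 lines fall from eutopic endometrium to lesion, the steepest being that of PA7539, which starts at 14.0%.

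On average the 3p share was 5.72% ± 2.86 in eutopic endometrium and 3.28% ± 0.82 in lesions (SD, n = 12 each). Put as reads, there were 19.2 ± 7.07 guide reads for each passenger read in eutopic endometrium and 31.7 ± 9.62 in lesions. The log2 ratio of 3p to 5p fell by 0.77 (standard error 0.17, 95% interval −1.13 to −0.40, limma adjusted p = 0.00546 over 133 hairpins). It was lower in the lesion of 12 of 12 animals (exact sign-flip p = 0.000488, the smallest that 12 pairs allow). The fall was 0.65 on the log2 scale without PA7539 and still passed the limma test (adjusted p = 0.00590).

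Strand ratios of other hairpins were measured in the same way wherever both strands had at least 10 counts in at least 12 libraries. The ratio passed the test for 28 of these 133 hairpins, or 21.1%. Taken as the less abundant strand over the more abundant strand, it was higher in lesions for 8 hairpins and lower for 20, and the median change over all hairpins was −0.08 on the log2 scale. miR-21 had the number 8 smallest p and the number 6 largest fall. The passenger strand is not unusually rare for miR-21: by mean count over libraries it made up 4.17% of the reads of the hairpin, beside a median of 6.58% for the less abundant strand over the 133 hairpins.

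**Figure D3:**
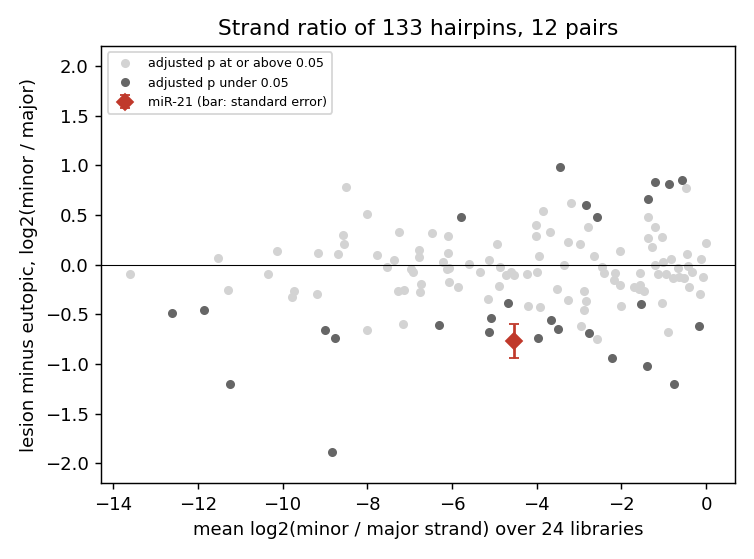
Change of the strand ratio between lesion and eutopic endometrium (vertical axis, log2 of the less abundant over the more abundant strand) against the mean of that ratio over 24 libraries (horizontal axis, log2) for 133 hairpins. Dark points passed the limma test, and the red diamond is miR-21 at −0.77 with its standard error.

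The absolute change of either strand depended on the scaling. The gap between them hardly can, since a scaling shifts both strands of a library alike, so its steadiness is no result. With DESeq2 size factors the log2 fold change over the 12 pairs was 1.03 for miR-21-5p and 0.25 for miR-21-3p. Scaled to miR-16-5p, miR-103a-3p and miR-191-5p, which are often used as reference miRNAs, it was 0.90 for the guide and 0.13 for the passenger. Scaled to library totals that leave out miR-143-3p and miR-10b-5p, the most abundant pair, it was 0.62 for miR-21-5p (edgeR adjusted p = 0.00715) and −0.15 for miR-21-3p.

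With plain library totals miR-21-5p no longer passed. Its log2 fold change was then 0.18 (standard error 0.23, edgeR adjusted p = 0.501), with 5 of 12 lesions higher (exact sign-flip p = 0.449). In PA7539 the guide strand was 1.02% of all counts in eutopic endometrium and 0.994% in the lesion, where miR-143-3p took 71.7%. In PA6627 it was 2.06% in eutopic endometrium and 7.15% in the lesion, where miR-143-3p took 13.9%. miR-21-3p turned in direction with library totals, to −0.59 (edgeR adjusted p = 0.122, exact sign-flip p = 0.129), with 8 of 12 lesions lower.

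Library totals moved the whole table: the median log2 fold change of the 527 miRNAs was −0.14 with TMM, −0.57 with totals lacking the most abundant pair and −0.98 with plain totals, and 58.6% of the miRNAs were then called lower in lesions. Relative to that median, miR-21-5p was 1.19 higher with TMM and 1.16 higher with library totals. miR-21-3p was 0.41 and 0.39 higher. This distance is fixed almost by construction, since a scaling shifts all miRNAs of a library alike, and it is no test of the change.

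**Figure D4:**
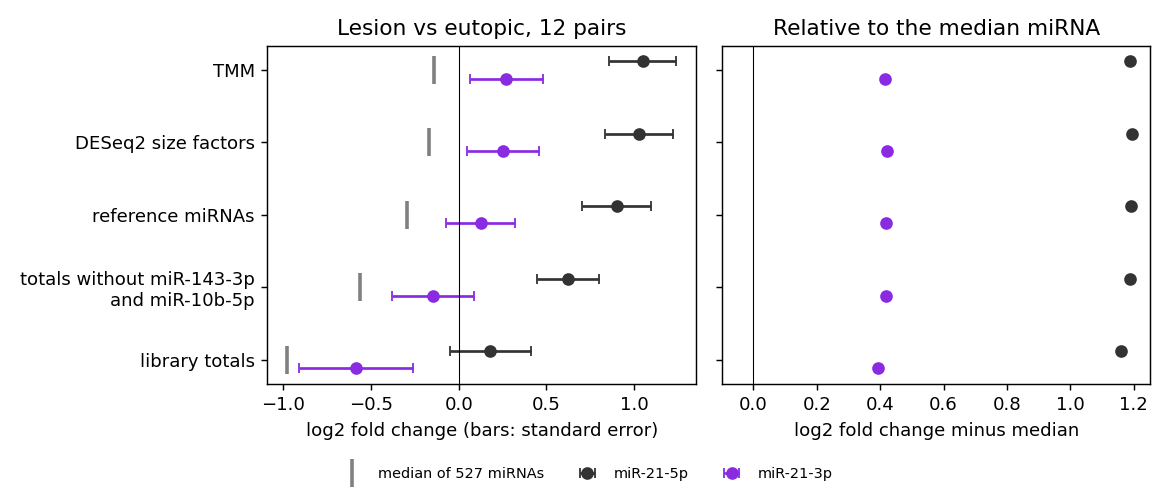
Left, log2 fold change of miR-21-5p (black) and miR-21-3p (purple) between lesion and eutopic endometrium in 12 pairs under 5 scalings, with standard errors, and the median of all 527 miRNAs (grey tick). Right, the same with that median subtracted, where the guide sits between 1.16 and 1.19 and the passenger between 0.39 and 0.42, as subtracting the median removes the scaling itself.

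In the 8 induced pairs alone, miR-21-5p was at 12852 ± 3820 CPM in eutopic endometria and at 25168 ± 5606 CPM in lesions (mean ± SD of 8 libraries), and it rose by 1.0 on the log2 scale (standard error 0.22, edgeR adjusted p = 0.00453). It was higher in 7 of 8 lesions (exact sign-flip p = 0.0156). In this comparison 222 of 507 miRNAs passed, or 43.8%, with 20.7% higher and 23.1% lower. miR-21-3p was at 792 ± 275 CPM in eutopic endometrium and 867 ± 256 CPM in lesions (log2 fold change 0.14, standard error 0.19, edgeR adjusted p = 0.554, and 0.05 to 0.28 with 1 animal left out).

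With library totals the induced change was 0.02 for miR-21-5p (edgeR adjusted p = 0.948), while miR-21-3p was called lower in lesions (−0.85, edgeR adjusted p = 0.0253, exact sign-flip p = 0.0469, lower in 6 of 8). In that scaling 58% of the 507 miRNAs were called lower, so that a lower call was the commonest outcome. The 3p to 5p ratio was lower in 8 of 8 induced lesions, by 0.87 on the log2 scale (limma adjusted p = 0.0266, exact sign-flip p = 0.00781, the smallest possible), where 9.02% of hairpins passed. Its limma call was lost when any of PA7255, PA7258, PA7457 or PA7524 was left out (adjusted p 0.0521 to 0.0773, log2 change −0.88 to −0.82).

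In the 4 spontaneous pairs the guide strand had a similar log2 fold change, 1.10 (standard error 0.39), with 16468 ± 6298 CPM in eutopic endometria and 36425 ± 14872 CPM in lesions (mean ± SD of 4 libraries). It did not pass over all miRNAs (unadjusted edgeR p = 0.0266, adjusted p = 0.229), although all 4 lesions were higher (exact sign-flip p = 0.13, the smallest that 4 pairs allow). With library totals 2 of 4 lesions were higher (exact sign-flip p = 0.50), and the log2 fold change was 0.55 for miR-21-5p (edgeR adjusted p = 0.483) and 0.04 for miR-21-3p. With TMM the gain of the guide ranged from 1.09-fold in PA5655 to 4.37-fold in PA6627, and without PA6627 the log2 fold change was 0.77. miR-21-3p had a log2 fold change of 0.53 (standard error 0.50, edgeR adjusted p = 0.564), which was 0.06 without PA6627. The 3p to 5p ratio was lower in all 4 lesions (log2 change −0.57, standard error 0.32, limma adjusted p = 0.606, exact sign-flip p = 0.13), and the change was −0.29 without PA6762.

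Calls were rare with 4 pairs: 1 of 485 miRNAs passed (0.206%), with 90 at an unadjusted p under 0.05, 45 calls by the edgeR-robust test and 48 by DESeq2. That miRNA was the erythroid miR-451a, with a log2 fold change of 2.07 (edgeR adjusted p = 0.0456). For strand ratios limma called 0 of 133 hairpins (0%), with 15 at an unadjusted p under 0.05. The 12-pair comparison contains both of these sets of animals and is no independent repeat of either.

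The order of the group means of miR-21-5p was spontaneous lesions, induced lesions, spontaneous eutopic endometria and induced eutopic endometria. Spontaneous lesions exceeded induced lesions by 0.56 on the log2 scale (standard error 0.26, edgeR unadjusted p = 0.0466, adjusted p = 0.629, exact permutation p = 0.103), and by 0.26 without PA6627. The eutopic endometria differed by 0.37 (standard error 0.28, edgeR adjusted p = 0.638, exact permutation p = 0.319), and by 0.067 without PA5655. Neither of these differences between the diseases passed the edgeR test after adjustment or reached 0.05 in the exact permutation test. Spontaneous eutopic endometria were not tested against induced lesions.

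For miR-21-3p the spontaneous lesions averaged 1278 ± 810 CPM (SD, n = 4), a log2 difference of 0.59 from the induced lesions (standard error 0.37, edgeR adjusted p = 0.980), which was 0.06 without PA6627. The spontaneous eutopic endometria averaged 747 ± 163 CPM (SD, n = 4), −0.08 on the log2 scale from the induced ones (edgeR adjusted p = 0.973). The 3p to 5p ratio differed between the diseases by −0.09 in lesions (limma adjusted p = 0.978) and by −0.39 in eutopic endometria (limma adjusted p = 0.885).

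The lesion effect itself was compared between the diseases by an interaction term. It was 0.11 larger in spontaneous disease for miR-21-5p (log2, 95% interval −0.80 to 1.01, edgeR adjusted p = 0.974, exact permutation p = 0.810). It was 0.39 larger for miR-21-3p (95% interval −0.59 to 1.36, edgeR adjusted p = 0.956). For the log2 strand ratio the term was 0.30 (95% interval −0.50 to 1.09, limma adjusted p = 0.996). As the ratio fell in lesions, this is a smaller estimated fall in spontaneous disease. With library totals the mean within-animal changes of the diseases differed by 0.52 for the guide and 0.82 for the passenger (exact permutation p = 0.331 and 0.281). The intervals are wide, so effects that differ between induced and spontaneous disease by nearly as much as the guide strand rose are not excluded by them.

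Between the diseases edgeR called 0 of 467 miRNAs in lesions (0%, with 37 at an unadjusted p under 0.05), 0 of 507 in eutopic endometria (0%, with 54) and 0 of 527 for the interaction (0%, with 16). The edgeR-robust test made 7, 11 and 3 calls and DESeq2 1, 3 and 3, with neither strand of miR-21 among them. For strand ratios limma called 0 of 133 hairpins (0%) in each of the 3 comparisons, with 10, 10 and 5 at an unadjusted p under 0.05.

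Both strands tended to be high in the same lesions. Over 12 lesions the log2 CPM of miR-21-5p and miR-21-3p had a Pearson r of 0.83 (100000 permutations, p = 0.000420, adjusted p = 0.00252) and a Spearman rho of 0.77 (permutation p = 0.00506, adjusted p = 0.0304). Without the 2 animals farthest from the median of miR-21-5p, r was 0.65. Over 12 eutopic endometria r was 0.24 (permutation p = 0.451, adjusted p = 0.541) and rho 0.61 (permutation p = 0.0392, adjusted p = 0.0784). There r rose to 0.61 without the 2 farthest animals, so the low pooled value rests on those.

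For the change within an animal r was 0.68 (permutation p = 0.0150, adjusted p = 0.0451), rho was 0.62 (permutation p = 0.0356, adjusted p = 0.0784), and r was 0.72 without the 2 farthest. Within the 8 induced animals alone r was 0.61 in lesions (exact permutation p = 0.0983, adjusted p = 0.197), 0.12 in eutopic endometria (exact p = 0.741) and 0.52 for the change (exact p = 0.174, adjusted p = 0.261). With TMM the relation thus did not pass within induced disease, and 4 spontaneous animals are too few for a value of their own. Adjustment was over the 6 relations of each scaling. A library's scale enters both strands, and as shares of library totals r was 0.92 in lesions and 0.90 for the change over 12 animals. In the 8 induced animals these shares gave an r of 0.78 in lesions, which passed (exact permutation, adjusted p = 0.0466). The change had an r of 0.75 (exact permutation, adjusted p = 0.0578) and the eutopic endometria −0.037.

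**Figure D5:**
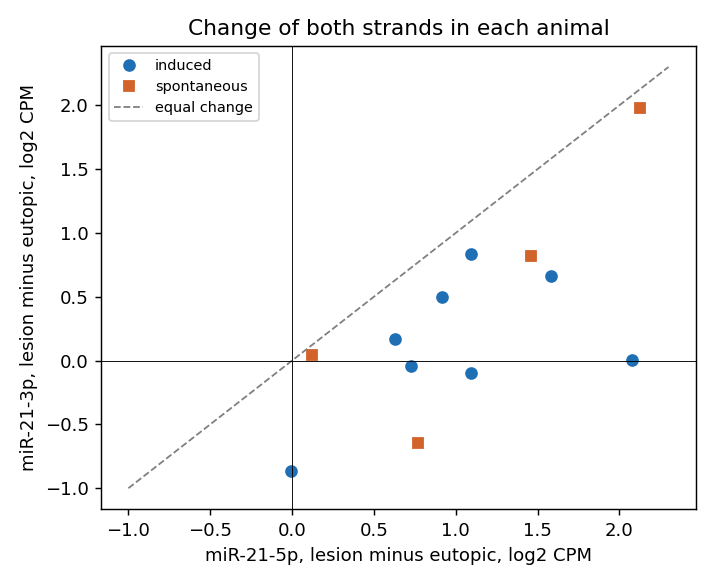
Lesion minus eutopic endometrium in log2 CPM for miR-21-5p (horizontal) and miR-21-3p (vertical) in each animal, blue circles for induced and orange squares for spontaneous disease. All 12 animals lie below the dashed line of equal change, PA7539 and PA6762 by the widest margins.

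The miRNAs whose log2 CPM moved most like the guide strand, after subtracting the 4 group means, were miR-126-5p, an endothelial miRNA (Pearson r 0.72 over 24 libraries), miR-146b-5p, an inhibitor of innate immune signalling (0.71), miR-374a-5p (0.65), the leukocyte miRNA miR-142-3p (0.64) and let-7i-5p (0.63). The median r of the 299 miRNAs compared was 0.06. Its own passenger strand was number 15 with 0.55. With the group means left in, the 5 closest were miR-126-5p (0.88), miR-126-3p, miR-221-5p, miR-34a-5p and miR-22-3p, and miR-21-3p was number 60. The miRNAs closest to miR-21-3p after subtraction were miR-299-3p (0.65), miR-18a-5p (0.64), miR-185-5p (0.62), miR-154-5p (0.60) and miR-21-5p. These are descriptions over libraries that share scale, depth and cell content.

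miR-590-5p, which belongs to the same seed family as miR-21-5p in human, was nearly absent. It had 0 counts in 11 of 24 libraries and at most 5 in the others, and was too low to be tested. Nearly all reads of that family were therefore miR-21-5p.

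Among 7 miRNAs that promote fibrosis in other organs, 2 rose and 3 fell in lesions over the 12 pairs, with a median log2 fold change of −0.25. Over all 527 miRNAs 25.6% rose and 27.1% fell, with a median of −0.14, and the counts of this and the following lists are to be read beside these shares. miR-145-5p, a smooth muscle miRNA, rose by 2.70 on the log2 scale (edgeR adjusted p = 0.000291), with 780 ± 634 CPM in eutopic endometria and 5506 ± 4606 CPM in lesions (mean ± SD of 12 libraries), and miR-192-5p, known from kidney and gut epithelium, fell by 0.93 (edgeR adjusted p = 0.00999). The p53 target miR-34a-5p was the other that rose, in 12 of 12 animals (edgeR adjusted p = 0.000911), and miR-433-3p and miR-382-5p of the imprinted Dlk1-Dio3 cluster fell by 0.79 and 0.49. The fibroblast miRNAs miR-199a-5p and miR-214-3p, which share a precursor transcript, were at 0.16 and −0.25 on the log2 scale and did not pass. With library totals 1 of the 7 was called higher and 5 were called lower, where 58.6% of all miRNAs were called lower.

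Among 14 miRNAs that restrain fibrosis 6 rose and 5 fell (median 0.37, beside 25.6% and 27.1% of all miRNAs). The 3 members of the miR-29 family, which represses collagens and other matrix genes, were among those that rose, miR-29a-3p by 1.52, miR-29b-3p by 1.56 and miR-29c-3p by 2.19 on the log2 scale (edgeR adjusted p = 0.000942, 0.00150 and 0.000408). All 3 also passed as higher with library totals. The others that rose were miR-26a-5p by 0.83, miR-101-3p by 1.18 and the muscle miRNA miR-133a-3p by 4.41. The 5 that fell were the epithelial miR-200 family, which represses ZEB1 and ZEB2, led in abundance by miR-141-3p (log2 fold change −2.43). With library totals 4 were called higher and 7 lower, again beside 58.6% of all miRNAs called lower.

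Among 8 miRNAs induced by inflammation 4 rose and 1 fell (median 0.79, beside the same 25.6% and 27.1%). miR-146a-5p, induced by NF-κB, rose by 1.86 and the myeloid miR-223-3p by 2.48, while miR-181b-5p, a miRNA of lymphocytes and endothelium, fell by 0.99 (edgeR adjusted p = 0.00219, 0.00166 and 0.000705). miR-132-3p and miR-212-3p, made from 1 locus, rose by 0.80 and 0.78. miR-155-5p, induced in activated macrophages, had a log2 fold change of 0.61 (edgeR adjusted p = 0.0945). Without PA7539 and PA6627, 3 rose and 1 fell, and with library totals 1 was called higher and 1 lower.

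Cell type markers moved with the same comparison. All 10 epithelial markers tested were lower in lesions (summed level 7861 to 23950 CPM in eutopic endometria and 339 to 9444 CPM in lesions, miR-205-5p being too low to test). All 4 smooth muscle markers, 3 of 4 striated muscle markers tested, 4 of 5 erythroid, 4 of 7 leukocyte and both endothelial markers were higher, where 25.6% of all miRNAs were higher and 27.1% lower. Of the 5 fibroblast markers 0 passed as higher, and miR-199b-5p alone passed as lower, with summed levels of 9753 to 22962 CPM in eutopic endometria and 9406 to 21533 CPM in lesions. With library totals 0 of 2 endothelial markers were called higher, 1 leukocyte marker was called higher and 1 lower, and 5 of 5 fibroblast markers were called lower, where 58.6% of all miRNAs were.

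The summed level was 1466 to 11939 CPM in eutopic endometria and 6228 to 18515 CPM in lesions for endothelium. For leukocytes it was 612 to 2518 CPM and 837 to 15722 CPM, the highest being the lesions of PA6303 (15722 CPM) and PA6627 (4334 CPM). These lesions held the most miR-21-5p, and they also had the highest endothelial sums, 16922 CPM in PA6303 and 18515 CPM in PA6627. Erythroid markers summed to 244 to 19394 CPM and 911 to 42386 CPM, with PA6627 the highest lesion and PA6303 the lowest. Striated muscle markers summed to 8.78 to 861 CPM and 48.2 to 7338 CPM, with miR-206, found in skeletal muscle, at 0 in 20 libraries. Smooth muscle markers, nearly all miR-143-3p, are given above as shares of counts. In bulk tissue a different number of cells of a type and a different amount of miR-21 per cell cannot be told apart, and the part of these markers in the change of either strand was not tested.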

How the data were processed

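Small RNA of 24 libraries was sequenced from TruSeq small RNA preparations of Trizol-extracted total RNA. The authors trimmed reads with Trim Galore 0.3.3, quantified them with miRDeep2 against human miRNAs of miRBase release 22, and deposited raw counts per mature miRNA, precursor and library (2888 combinations). They used edgeR 3.22.5 in its robust form for their own tests. Since baboon reads were matched to human miRNAs, a strand that differs in sequence could be undercounted. The sources used here state neither the mismatches allowed, nor how reads with several matches were treated, nor a genome build, so no coordinates are printed. No sequences were used, and the parts of the naming rule that need them were not run.

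Each mature miRNA was represented by its precursor of highest total. The tests were run in R 4.3.3 by means of edgeR 4.0.16 (TMM factors, robust quasi-likelihood fit, a filter of 2 CPM in 2 or more of the libraries compared), limma 3.58.1 for strand ratios (log2 of 3p over 5p counts, 0.5 added to each, hairpins with both strands at 10 counts in at least 12 libraries) and DESeq2 1.42.0 as an alternative. The animal was a block wherever both tissues were compared, from the animal identifier in the labels. The deviations of lesion and eutopic endometrium from the means of their groups correlated at −0.16 to 0.49 (median 0.20), above 0.1 in 7 of 12 animals. Exact sign-flip and label permutation tests were two-sided on log2 CPM with a prior of 1, and correlations used 100000 permutations or, with 8 animals, all of them. Every pair of libraries within a group differed by more than counting error (chi-square at least 135 for each degree of freedom, 68 pairs). The scripts were tested on simulated data with known changes.

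The strands of miR-21, the lists and the markers were chosen with earlier results of these data known. Named besides them were, by rule, up to 4 members of a list by mean CPM, the 5 miRNAs most correlated with either strand, the reference miRNAs and the most abundant miRNAs. miR-590-5p was named from general knowledge, and miR-34a-5p, miR-433-3p, miR-382-5p, the miR-29 family, miR-133a-3p, miR-132-3p, miR-212-3p, miR-223-3p, miR-205-5p and miR-206 were chosen for naming after their values were seen. As alternatives, 4 other scalings, other filters, counts summed over precursors, other tests, no block, other priors for the ratio and leaving out each animal were tried. Leaving out PA7539 and PA6627 together, and the lists under other scalings, were added after seeing the data.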

Additional observations from a re-analysis of the deposited data

Results flagged for a closer look

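In the eutopic endometrium of PA7539, an animal with induced disease, miR-21-3p made up 14.0% of both strands, while the next highest of the 8 induced eutopic endometria was at 7.29%, a gap of 0.598 of the whole range. That library is also the shallowest, with 2592999 counts, and has the lowest level of miR-21-5p, 5379 CPM, while its miR-21-3p, 873 CPM, lies within the range of the others. The part of its depth in the ratio was not tested. It was the only value that stood apart among 26 groups of values examined, and chance flags about 1 in 20 groups.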

How the results depend on the processing

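The rise of miR-21-5p over 12 pairs passed under 10 of 11 alternatives and with each animal left out (0.93 to 1.14). The fall of the 3p to 5p ratio passed under all 7 of its alternatives and with each animal left out (−0.83 to −0.65). Several alternatives could hardly move these calls, so the tallies are no measure of robustness. Summing over precursors leaves the counts of miR-21 unchanged, as do the filters, and the priors are small beside at least 1410 counts a strand. Library totals ended the guide's call over 12 pairs (0.18) and in induced disease (0.016), and turned miR-21-3p to −0.59 and −0.85, as did totals without miR-143-3p and miR-10b-5p (−0.15 and −0.29). They also turned the guide's difference between eutopic endometria to −0.057 and the correlation of the strands in 8 induced eutopic endometria to −0.037, and brought that in 8 induced lesions past the threshold (0.78). The induced ratio fell by 0.87 without passing when hairpins with 1 count a strand entered (adjusted p = 0.0670) and ranged from −0.95 to −0.70 with 1 animal left out. Without a filter, spontaneous miR-21-5p passed (1.03, edgeR adjusted p = 0.0457). In the animal pairing, dropping the block ended the limma call of the induced ratio (−0.87, adjusted p = 0.0678) and changed no other call of either strand or the ratio.

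Leaving out 1 animal turned uncalled differences. The lesion effect differed between diseases by −0.22 to 0.46 for miR-21-5p and −0.065 to 0.80 for miR-21-3p. Between eutopic endometria miR-21-3p differed by −0.23 to 0.019, and between lesions the ratio differed by −0.24 to 0.13. Calls in the spontaneous pairs ranged from 0 to 68 miRNAs, the 68 coming without a filter, and from 0 to 4 hairpins, the 4 with 50 counts a strand. Hairpin calls in induced disease fell from 12 to 7 with 1 count a strand and to 5 without PA7457 or PA7524. With 1 animal left out, the comparison of eutopic endometria between diseases gave up to 8 miRNA calls. Over 12 pairs library totals split the miRNA calls into 38 higher and 309 lower, against 135 and 143 with TMM, and reference miRNAs into 101 and 189. In induced disease the split was 33 and 294 with totals and 105 and 117 with TMM.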
